A study of Sus scrofa with 2 samples.

Results

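The genes described here encode 10 secreted proteins of the extracellular matrix: FBLN5 (fibulin 5), ELN (elastin), LTBP2, FN1 (fibronectin), TNC (tenascin C), POSTN (periostin), THBS1 (thrombospondin 1), CCN2 (connective tissue growth factor), CILP and SMOC1. They were chosen by symbol from a list of matricellular and elastic fibre proteins, with their levels in these libraries already known, and all 10 were among the 31908 genes of the deposited count matrices. The values that follow are therefore descriptions. RNA was counted in single nuclei from frozen heart, the free wall of the left ventricle, of Bama miniature pigs. TG is 1 library from a triple-transgenic pig line carrying PNPLA3I148M (a variant of a lipid droplet lipase), GIPRdn (a receptor for the incretin hormone GIP that acts in a dominant-negative way) and hIAPP (human islet amyloid polypeptide). WT is 1 library from wild-type Bama pig, and both genotypes had received a diet high in fat and sucrose for 12 months. The promoters of the transgenes, the age and sex of the animals and the number of animals behind each library are not given in the sources used here. With 1 library per genotype there is no replicate and no test, library and genotype cannot be told apart, and every interval below is a 95% interval of counting error only.

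Elastic fibres are built from tropoelastin, the product of ELN, laid onto a scaffold of fibrillin microfibrils and cross-linked by lysyl oxidases. FBLN5 binds elastin and the cross-linking enzymes and brings them to the scaffold, and LTBP2 is a microfibril-bound relative of the proteins that hold latent TGF-beta. Matricellular proteins are secreted into the matrix mainly to signal to cells through integrins and other receptors, and many are known from wound repair and from the remodelling heart. FN1 is the adhesive glycoprotein on which other matrix fibres assemble, and TNC and POSTN are known for their appearance at sites of injury.

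The TG library held 14939 nuclei with a median of 3937 UMIs (counted RNA molecules) and the WT library 16725 nuclei with a median of 5442 UMIs, and 81 barcodes occurred in both. Nuclei were clustered without the 10 genes among the variable genes, and clusters were named from marker genes, so each class is called "-like". The 8 classes compared held 5307 TG and 6939 WT cardiomyocyte-like nuclei, 1993 TG and 2852 WT fibroblast-like, 2900 TG and 1307 WT vascular endothelial-like, and 681 TG and 1021 WT lymphatic endothelial-like nuclei. They further held 411 TG and 1085 WT macrophage-like nuclei, 572 TG and 625 WT T or NK-like, 135 TG and 241 WT smooth muscle-like, and 139 TG and 166 WT Schwann or neural-like nuclei. Clusters of mixed identity, set aside by thresholds chosen after the clusters had been seen, held 16.3% of TG and 10.7% of WT nuclei. Unnamed clusters held 2.02% of TG and 1.79% of WT nuclei. Levels are UMIs per 1000000 nuclear-encoded UMIs of a class (CPM), and a gene is called higher or lower in TG at a ratio of at least 1.5 in that direction with an interval that leaves out 1 and at least 20 UMIs over both libraries. Most fibroblast-like, cardiomyocyte-like, lymphatic endothelial-like and smooth muscle-like nuclei of the libraries lay in different clusters. Cardiomyocyte markers were found in every other class, and more in TG. Their median level, as a share of that in cardiomyocyte-like nuclei of the same library, ran between 28.3% and 61.2% over the 7 other classes in TG and between 7.98% and 29.2% in WT.

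In fibroblast-like nuclei, the main matrix-producing cells of the heart, 7 of the 10 genes were higher in TG, 2 were lower and 1 met neither rule. Over all 14897 genes measured in that class, 16.9% were called higher and 8.97% lower. The genes higher in TG were CILP, TNC, CCN2, LTBP2, SMOC1, FN1 and ELN, and the genes lower were POSTN and FBLN5. In smooth muscle-like nuclei the split ran the other way, with 1 of 8 measured genes higher and 6 lower, against 15.8% and 9.81% of 7597 genes. In vascular endothelial-like nuclei 0 of 10 were higher and 6 were lower, against 11.8% and 7.65% of 14471 genes. With only the clusters of that class that held at least 40 nuclei of each library, 4 were lower. The log2 ratios of FN1, THBS1 and LTBP2 were then 0.40, 0.41 and -0.41. In cardiomyocyte-like nuclei 6 of 10 were higher and 1 was lower, against 25.0% and 8.90% of 18926 genes. The count of 6 was 2 with every nucleus thinned to 1000 UMIs, and 1 with only the clusters that held at least 40 nuclei of each library. The log2 ratios of FN1, TNC and SMOC1 were then -0.36, -0.88 and -0.46. Those pooled values set mostly TG nuclei of cluster 1 against WT nuclei of cluster 8. Inside clusters 1 and 8 the FN1 ratios were 0.896 (0.343 to 3.33) and 0.981 (0.340 to 2.32). SMOC1 had 41 UMIs in TG and 0 in WT in cluster 1, and a ratio of 2.39 (0.675 to 7.03) in cluster 8. TNC had 1 WT UMI in cluster 1 and 5 in cluster 8. No share of all genes was computed for thinned nuclei or for shared clusters only. The shares above are printed for scale only, because the 10 genes were chosen from the same libraries.

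**Figure D1:**
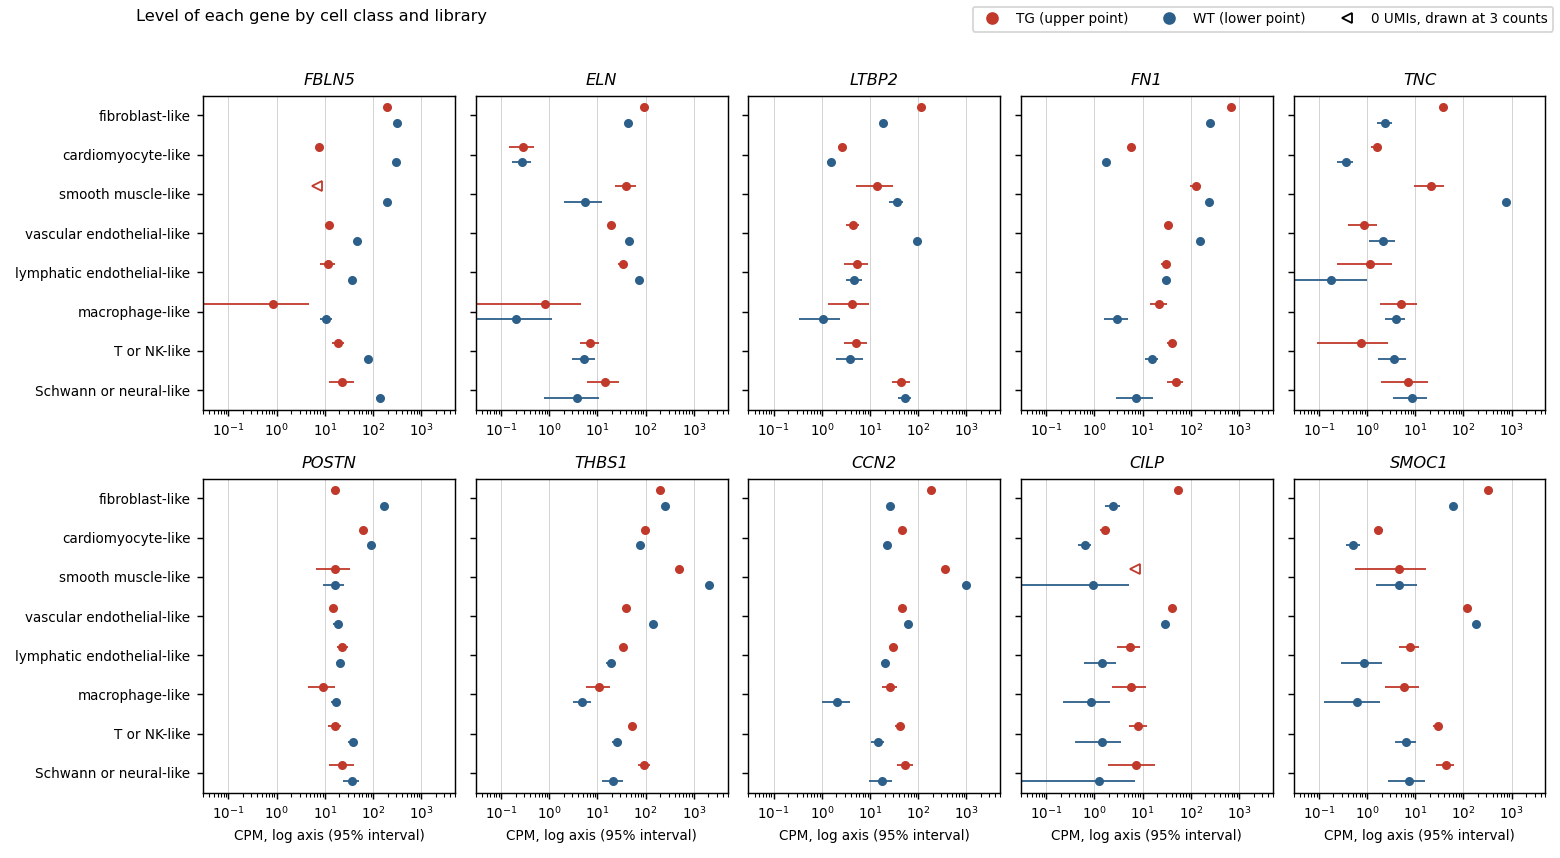
Level of each gene in CPM, on a log axis, in 8 cell classes, with the TG library as the upper point and the WT library as the lower point of each row and bars for 95% counting intervals. FBLN5 lies to the left in TG in all 8 classes, while CILP, SMOC1, LTBP2 and CCN2 lie to the right in TG in fibroblast-like nuclei.

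**Figure D2:**
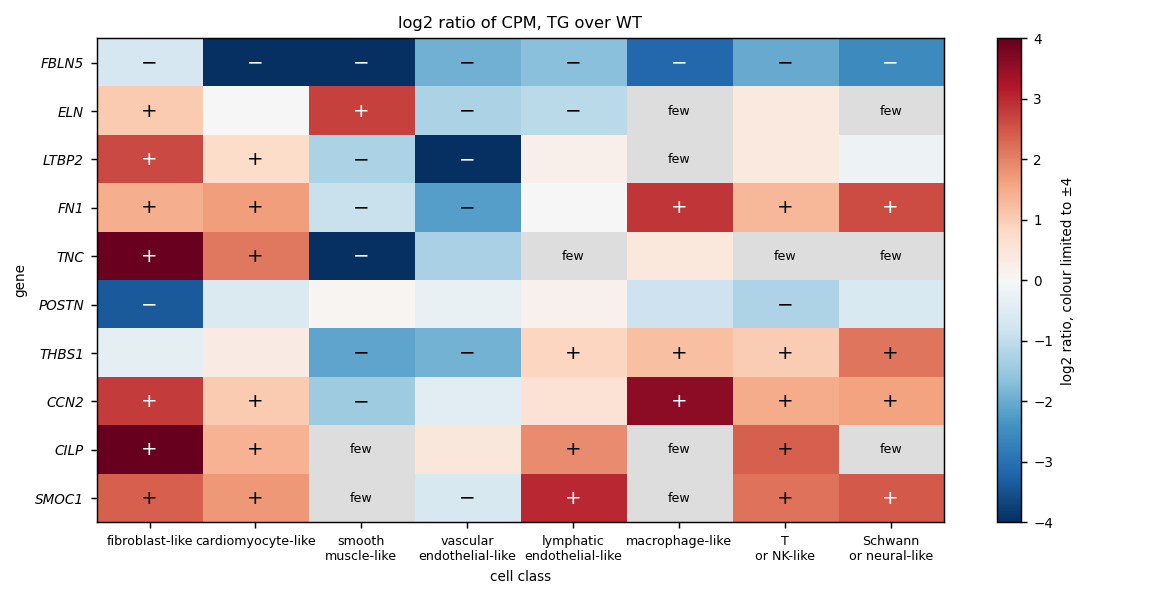
Log2 ratio of CPM, TG over WT, for each gene (rows) in each class (columns), with plus and minus signs where a gene was called higher or lower in TG and "few" where both libraries together held under 20 UMIs. Of 80 pairs of gene and class, 69 were measured, 29 were called higher and 21 lower in TG.

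FBLN5 is taken first because it was the gene called lower in TG in all 8 classes under the main settings. It lies on chromosome 7 from 113423629 to 113526412 (RefSeq, assembly Sscrofa11.1, the build named in the submitters' processing notes). In cardiomyocyte-like nuclei it measured 7.44 CPM in TG (346 UMIs) and 301 CPM in WT (22746 UMIs), a ratio of 0.0247 (0.0222 to 0.0275). At least 1 FBLN5 UMI was found in 4.54% of TG and 79.2% of WT cardiomyocyte-like nuclei, whose median depths were 7651 UMIs in TG and 9997 UMIs in WT. With every nucleus thinned to 1000 UMIs, which 5307 of 5307 TG and 6809 of 6939 WT nuclei of that class allowed, these shares were 0.773% in TG and 24.1% in WT. The thinned shares in T or NK-like nuclei, a class not known to make the protein, were 2.10% in TG and 1.97% in WT at median depths of 3066 UMIs in TG and 3438 UMIs in WT. The TG share in cardiomyocyte-like nuclei was thus no higher than that background, and the WT share was above it. In T or NK-like nuclei themselves the thinned share was not lower in TG, although the level was, at 19.0 CPM against 77.4 CPM in WT.

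The FBLN5 difference was also seen inside cardiomyocyte clusters that held nuclei of both libraries. In cluster 8 FBLN5 stood at 5.48 CPM in 196 TG nuclei and 259 CPM in 1106 WT nuclei. In cluster 1, a mostly TG cluster, it stood at 4.47 CPM in 3125 TG nuclei and 351 CPM in the 87 WT nuclei. The WT nuclei of each cluster thus lay far above the TG nuclei that shared it. TRIP11, a Golgi protein gene that overlaps FBLN5 in RefSeq, measured 105 CPM in TG and 167 CPM in WT cardiomyocyte-like nuclei, a ratio of 0.630 (0.609 to 0.651). Whether the counting assigned reads by strand is not given in the sources used here, so reads of the overlap cannot be told apart.

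The fibroblast-like class was the highest for FBLN5 in both libraries, at 196 CPM in TG and 314 CPM in WT, a ratio of 0.626 (0.586 to 0.669). The difference there was far smaller than in cardiomyocyte-like nuclei. FBLN5 no longer met the rule in this class once a library-wide profile of free RNA was taken off, as described below. TRIP11 had 153 CPM in TG and 141 CPM in WT in the same class. In smooth muscle-like nuclei FBLN5 had 0 UMIs among 433093 in TG and 196 CPM in WT (209 UMIs), so that it was at least 28.3-fold lower in TG against a floor of 3 counts in that library. One WT smooth muscle cluster of 42 nuclei (cluster 108) also had 0 FBLN5 UMIs, and TRIP11 in the class measured 83.1 CPM in TG and 192 CPM in WT. The place of most FBLN5 transcripts differed with these levels: cardiomyocyte-like nuclei held 14.5% of the FBLN5 UMIs of all TG nuclei and 74.6% of those of all WT nuclei, and fibroblast-like nuclei held 48.2% in TG and 12.8% in WT.

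In the remaining 5 classes FBLN5 measured between 0.833 and 23.2 CPM in TG and between 10.8 and 140 CPM in WT. Those levels have to be read beside free RNA. A library-wide profile was also taken off at the share set by the cardiomyocyte markers. No WT FBLN5 UMIs then remained in vascular endothelial-like, lymphatic endothelial-like, macrophage-like and T or NK-like nuclei, and few or none remained in TG. That setting therefore gave no ratio of measured FBLN5 levels in these classes. In lymphatic endothelial-like nuclei the log2 ratio was -1.68 under the main settings. It was 0.59 with the 10 genes left among the variable genes, 0.56 at Leiden resolution 2 and 0.62 with at least 2000 UMIs per nucleus. Inside vascular cluster 4, the largest cluster of the class, FBLN5 stood at 6.28 CPM in TG and 6.41 CPM in WT, which did not differ beyond counting error. In vascular cluster 10 it was lower in TG, at 7.01 CPM in TG and 49.6 CPM in WT, a ratio of 0.141 (0.0856 to 0.223). In vascular cluster 14 it stood at 26.5 CPM in TG and 40.4 CPM in WT, a ratio of 0.654 (0.393 to 1.14), so the clusters of the class differed among themselves.

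ELN, on chromosome 3 from 11214194 to 11245891, encodes the elastic core itself. Fibroblast-like nuclei had 90.7 CPM in TG and 43.8 CPM in WT, a ratio of 2.07 (1.84 to 2.34), with 19.8% of TG and 13.7% of WT nuclei holding a UMI. Vascular endothelial-like nuclei had 18.7 CPM in TG and 44.8 CPM in WT, and lymphatic endothelial-like nuclei 33.7 CPM in TG and 71.2 CPM in WT, so both endothelial classes were lower in TG. Smooth muscle-like nuclei had 39.3 CPM in TG and 5.63 CPM in WT, but from 17 UMIs in TG and 6 UMIs in WT. The order of classes differed as well. Fibroblast-like nuclei were highest in TG, ahead of smooth muscle-like nuclei, whereas lymphatic endothelial-like nuclei were highest in WT, ahead of vascular endothelial-like and fibroblast-like nuclei, which did not differ beyond counting error. In lymphatic cluster 12, shared by the libraries, ELN stood at 18.5 CPM in 131 TG nuclei and 71.2 CPM in 1011 WT nuclei. Cardiomyocyte markers summed there to 29675 CPM in TG and 7866 CPM in WT, and vascular endothelial markers to 1751 CPM in TG and 4650 CPM in WT, and their part in the ELN value was not tested. Cluster 18, which held 80.8% of the TG lymphatic endothelial-like nuclei, had 42.7 CPM of ELN in 550 TG nuclei and 71.8 CPM in 10 WT nuclei, the last from 4 UMIs.

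LTBP2, on chromosome 7 from 97744974 to 97852848, measured 116 CPM in TG and 18.4 CPM in WT fibroblast-like nuclei, a ratio of 6.30 (5.41 to 7.35). In vascular endothelial-like nuclei the levels were 4.41 CPM in TG and 92.8 CPM in WT, a ratio of 0.0476 (0.0343 to 0.0644). The highest class was therefore fibroblast-like in TG and vascular endothelial-like in WT. The WT level came mostly from cluster 26, a set of 91 nuclei with no TG nucleus, led by COL23A1, MYRIP, RYR3 and the arterial gap junction gene GJA5, in which LTBP2 reached 863 CPM. That cluster held 451 of the 478 LTBP2 UMIs of WT vascular endothelial-like nuclei. With the clusters shared by both libraries alone, the log2 ratio moved to -0.41, against -4.38 with all of them. ISCA2, which overlaps LTBP2 in RefSeq, measured 8.73 CPM in TG and 7.82 CPM in WT fibroblast-like nuclei.

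FN1, on chromosome 15 from 117658158 to 117737145, had 676 CPM in TG and 245 CPM in WT fibroblast-like nuclei, a ratio of 2.76 (2.63 to 2.89). After thinning, 35.0% of TG and 18.4% of WT fibroblast-like nuclei held an FN1 UMI, against 3.85% of TG and 1.15% of WT T or NK-like nuclei. Fibroblast-like nuclei had median depths of 2651 UMIs in TG and 4014 UMIs in WT. Fibroblast-like nuclei were its highest class in both libraries. In WT they did not differ beyond counting error from smooth muscle-like nuclei, which had 127 CPM in TG and 236 CPM in WT. WT fibroblast-like nuclei were not uniform. In cluster 20, led by GFPT2, LMX1A and TNFAIP6, FN1 stood at 852 CPM in 35 TG nuclei and 581 CPM in 345 WT nuclei. The ratio there was 1.47 (1.18 to 1.80), under the 1.5-fold rule, and 1 TG nucleus held 35.9% of the TG UMIs. In cluster 2 it stood at 645 CPM in 15 TG nuclei and 190 CPM in 2468 WT nuclei, a ratio of 3.40 (2.30 to 4.84).

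FN1 in vascular endothelial-like nuclei measured 34.3 CPM in TG and 158 CPM in WT, a ratio of 0.217 (0.191 to 0.246). This too rested on cluster 26, where FN1 stood at 1332 CPM and 83.5% of the nuclei held a UMI. Without that cluster the log2 ratio was 0.40, opposite in sign to the -2.20 of the whole class. Among the shared clusters, cluster 14 had 82.4 CPM in TG and 76.6 CPM in WT, cluster 10 had 12.4 CPM in TG and 26.5 CPM in WT, and cluster 4 had 17.0 CPM in TG and 9.62 CPM in WT. FN1 was thus lower in TG in 1 shared cluster, with a ratio of 0.468 (0.308 to 0.703) in cluster 10, and not in the other two.

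TNC, on chromosome 1 from 255533235 to 255630381, had a different highest class in each library. In smooth muscle-like nuclei it measured 20.8 CPM in TG (9 UMIs) and 775 CPM in WT (826 UMIs), a ratio of 0.0268 (0.0122 to 0.0512). In fibroblast-like nuclei it measured 37.0 CPM in TG (216 UMIs) and 2.34 CPM in WT (29 UMIs), a ratio of 15.8 (10.7 to 24.2). The fibroblast value in TG came from few nuclei: 47 of 1993 held a UMI, 1 nucleus held 62 of the 216 UMIs, and 3 nuclei held 50% of them. In the WT smooth muscle-like class 90 of 241 nuclei held a UMI and 11 nuclei held 50%. The main class for TNC in TG went to smooth muscle-like nuclei under 4 of 8 alternative settings, and the levels of the 2 classes in TG did not differ beyond counting error.

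The TNC difference in smooth muscle-like nuclei followed the clusters. WT cluster 101, led by ITGA8, TNC and ACTG2, had 1016 CPM in 182 nuclei, whereas WT cluster 108 had 4.42 CPM in 42 nuclei. TG nuclei lay almost wholly in cluster 104, where TNC measured 18.7 CPM in 133 TG nuclei and 34.3 CPM in 17 WT nuclei, from 8 UMIs in TG and 1 UMI in WT. Fewer than 10 TG nuclei fell in cluster 101, so the 2 libraries could not be compared inside it.

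**Figure D3:**
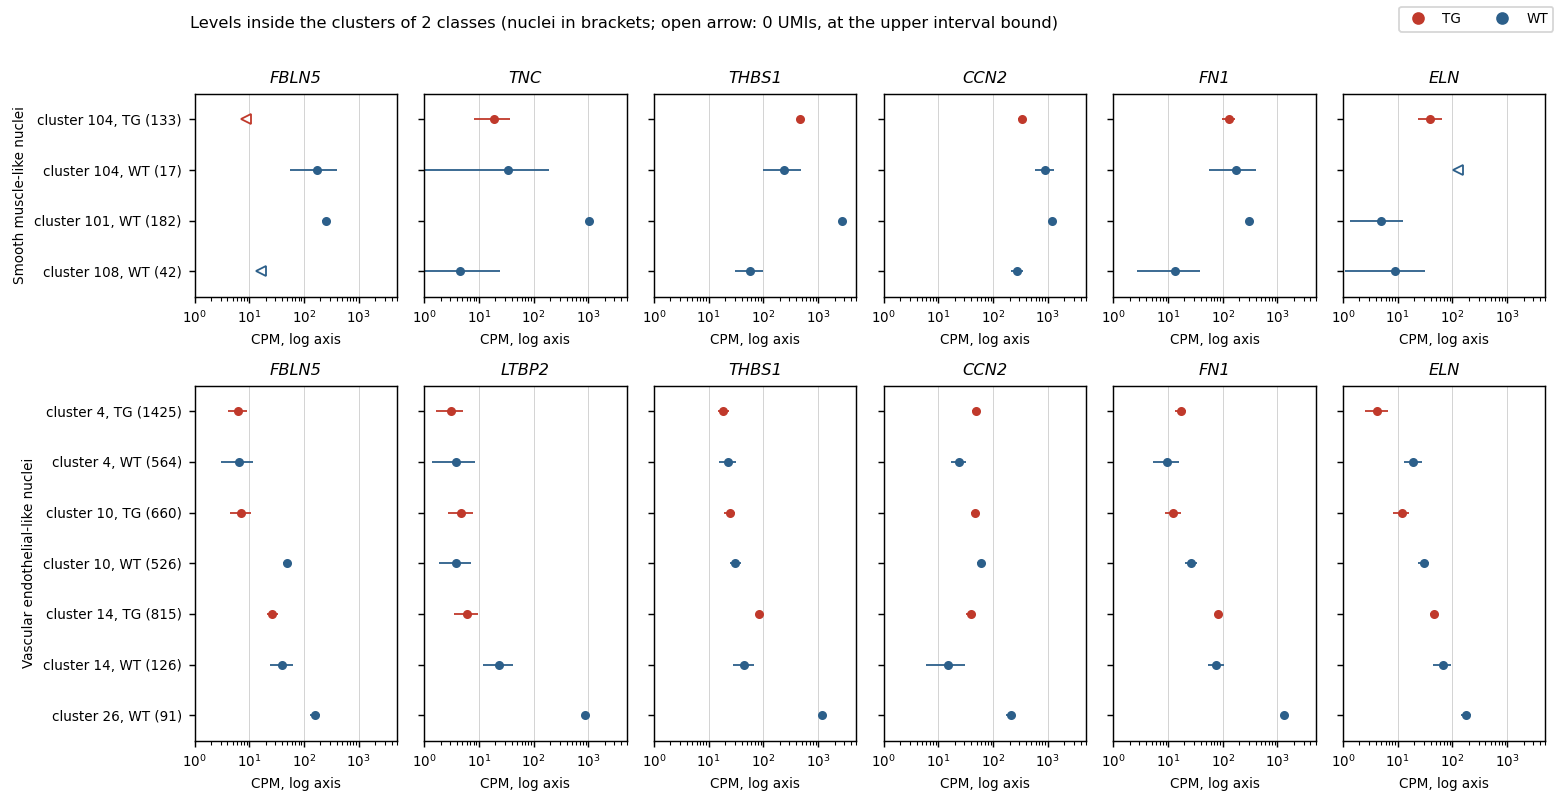
Levels in CPM, on a log axis, of 6 genes in the clusters of smooth muscle-like nuclei (upper row) and of vascular endothelial-like nuclei (lower row), by library, with 95% counting intervals and the number of nuclei in brackets. WT cluster 101 stands at 1016 CPM for TNC and WT cluster 26 at 863 CPM for LTBP2, above the other clusters of their class.

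POSTN, on chromosome 11 from 13225183 to 13258973, is known in other mammals mainly as a product of activated fibroblasts. In fibroblast-like nuclei it measured 16.4 CPM in TG (96 UMIs) and 170 CPM in WT (2109 UMIs), a ratio of 0.0967 (0.0779 to 0.119). A UMI was found in 2.61% of TG and 31.4% of WT fibroblast-like nuclei, and after thinning in 1.00% of TG and 11.3% of WT ones. In fibroblast cluster 5 POSTN stood at 16.2 CPM in 1943 TG nuclei and 91.7 CPM in the 39 WT nuclei there. In cluster 2 it stood at 20.8 CPM in the 15 TG nuclei, from 1 UMI, and 187 CPM in 2468 WT nuclei. The low level thus went with the library in both clusters.

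Cardiomyocyte-like nuclei held most POSTN UMIs in both libraries, 72.2% in TG and 65.7% in WT. Their level was 62.1 CPM in TG and 92.3 CPM in WT, a ratio of 0.672 (0.644 to 0.702) that did not reach the 1.5-fold rule. A UMI was found in 31.1% of the TG and 38.4% of the WT nuclei. The thinned shares were 6.03% in TG and 7.89% in WT, and those of T or NK-like nuclei were 0.874% in TG and 2.30% in WT. In TG, cardiomyocyte-like nuclei were the highest class, and in WT they came after fibroblast-like nuclei. RefSeq places a long noncoding RNA gene, LOC102166397, across POSTN, and reads of the overlap cannot be told apart here.

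THBS1, on chromosome 1 from 131728781 to 131746098, binds the receptors CD36 and CD47 and can activate latent TGF-beta. It was highest in smooth muscle-like nuclei in both libraries, at 490 CPM in TG and 2098 CPM in WT, a ratio of 0.233 (0.202 to 0.269). WT cluster 101 had 2734 CPM, while WT cluster 108 had 57.4 CPM, and in cluster 104 the level was 474 CPM in TG and 240 CPM in WT, the last from 7 UMIs. In fibroblast-like nuclei THBS1 was the gene that met neither rule, with 196 CPM in TG and 258 CPM in WT, a ratio of 0.761 (0.711 to 0.815). Cardiomyocyte-like nuclei held the largest share of its UMIs, 54.5% in TG and 42.8% in WT, at 96.4 CPM in TG and 77.4 CPM in WT. In vascular endothelial-like nuclei it measured 39.1 CPM in TG and 144 CPM in WT. Cluster 26 stood at 1163 CPM, and without it the log2 ratio was 0.41 and no longer -1.88. Among the shared clusters THBS1 was higher in TG in cluster 14 alone, with a ratio of 1.88 (1.20 to 3.09). In clusters 4 and 10 the ratios were 0.829 (0.550 to 1.27) and 0.797 (0.576 to 1.10).

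CCN2, listed in RefSeq under its older symbol CTGF on chromosome 1 from 31674398 to 31677697, is a widely used readout of TGF-beta and YAP signalling. It had 182 CPM in TG and 25.9 CPM in WT fibroblast-like nuclei, a ratio of 7.04, and 27.5% of TG and 7.15% of WT nuclei held a UMI. In cardiomyocyte-like nuclei it had 46.1 CPM in TG and 22.5 CPM in WT, a ratio of 2.05 (1.92 to 2.19). Smooth muscle-like nuclei were its highest class in both libraries and were lower in TG, at 365 CPM against 979 CPM in WT, a ratio of 0.373 (0.313 to 0.441). Inside smooth muscle cluster 104 it was also lower in TG, with 341 CPM in 133 TG nuclei and 893 CPM in 17 WT nuclei, while WT cluster 108 had 278 CPM. In macrophage-like nuclei CCN2 measured 25.8 CPM in TG and 2.08 CPM in WT, from 31 UMIs in TG and 10 UMIs in WT. That TG level lay below the 46.1 CPM of TG cardiomyocyte-like nuclei, whose markers stood in TG macrophage-like nuclei at a median of 28.3% of their own class and in WT ones at 7.98%. The part of that RNA in the macrophage value was not tested.

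CILP, a cartilage intermediate layer protein that binds TGF-beta, lies on chromosome 1 from 163236864 to 163271222. In fibroblast-like nuclei it measured 54.1 CPM in TG (316 UMIs) and 2.42 CPM in WT (30 UMIs), a ratio of 22.4 (15.4 to 33.7). The TG value came from 120 of 1993 nuclei, and 20 nuclei held 50% of it. Vascular endothelial-like nuclei had 40.5 CPM in TG and 29.7 CPM in WT, a ratio of 1.36 (1.13 to 1.65) under the 1.5-fold rule. They were the highest class in WT and came after fibroblast-like nuclei in TG. In fibroblast cluster 5 the TG nuclei had 54.1 CPM and the 39 WT nuclei 61.1 CPM, from 10 UMIs, a ratio of 0.886 (0.475 to 1.87).

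SMOC1, a calcium-binding basement membrane protein, lies on chromosome 7 from 93480064 to 93628332. Fibroblast-like nuclei had 321 CPM in TG and 61.4 CPM in WT, a ratio of 5.23 (4.80 to 5.69), and 43.6% of TG and 15.3% of WT nuclei held a UMI. Vascular endothelial-like nuclei had 116 CPM in TG and 181 CPM in WT, a ratio of 0.642 (0.589 to 0.700), and were the highest class in WT. Cluster 4 had 93.0 CPM in TG and 137 CPM in WT, cluster 10 had 191 CPM in TG and 247 CPM in WT, and cluster 14 had 70.7 CPM in TG and 66.0 CPM in WT. SMOC1 in cardiomyocyte-like nuclei was at 1.72 CPM in TG and 0.516 CPM in WT. The other genes higher in TG fibroblast-like nuclei, apart from CCN2, were also at most 5.68 CPM in TG cardiomyocyte-like nuclei.

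**Figure D4:**
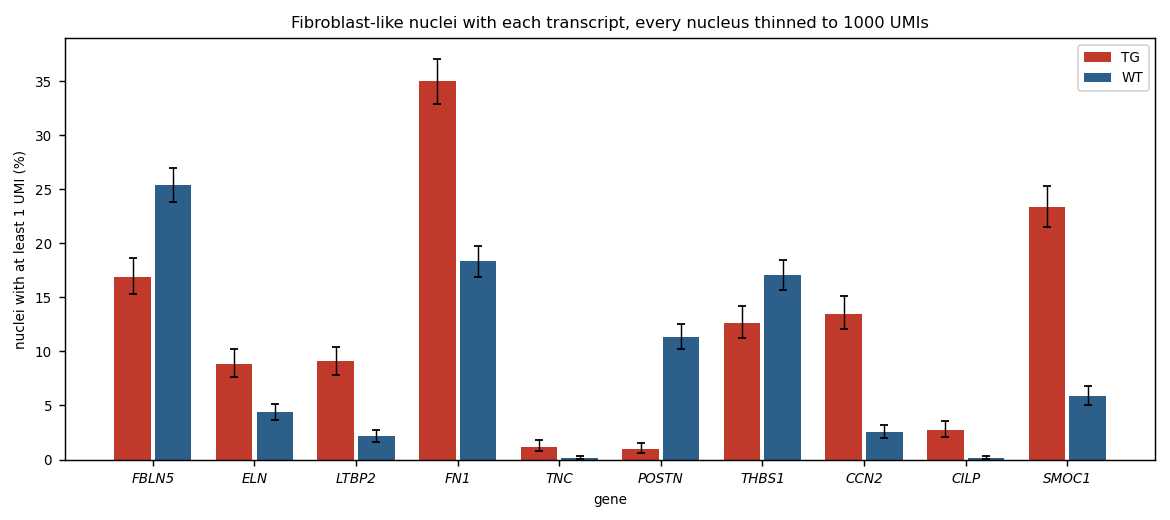
Share of fibroblast-like nuclei with at least 1 UMI of each gene after every nucleus was thinned to 1000 UMIs, for TG (left bars) and WT (right bars), with 95% exact Clopper-Pearson intervals. FN1 reached 35.0% in TG and 18.4% in WT, and POSTN 1.00% in TG and 11.3% in WT.

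For the 7 genes higher in TG fibroblast-like nuclei, levels in the WT nuclei of fibroblast cluster 5 are also given. Those nuclei were 1.37% of WT fibroblast-like nuclei and had grouped with TG nuclei by likeness over other genes. A similar level of the 7 genes there cannot be told apart from that selection. FN1 stood at 672 CPM in the 1943 TG nuclei of that cluster and at 746 CPM in the 39 WT nuclei that grouped with them. TNC stood at 37.5 CPM in TG and 67.2 CPM in WT, and ELN at 92.2 CPM in TG and 79.4 CPM in WT. For FN1, TNC, CILP and ELN the ratio inside the cluster had an interval that included 1, with 11 WT UMIs of TNC and 10 of CILP. For SMOC1, CCN2 and LTBP2 TG was higher there as well, with ratios of 5.99 (3.15 to 13.1), 2.99 (1.62 to 6.25) and 2.39 (1.21 to 5.57). Fibroblast cluster 20, with 35 TG and 345 WT nuclei, gave another picture for some of these genes. SMOC1 had 0 UMIs in its TG nuclei and 69.5 CPM in its WT nuclei, a ratio of 0 (0 to 0.447), opposite to the class as a whole. CILP stood there at 66.2 CPM in TG and 2.65 CPM in WT, a ratio of 25.0 (6.70 to 114) from 8 UMIs in TG and 4 UMIs in WT. TNC stood at 24.8 CPM in TG and 0.661 CPM in WT, from 3 UMIs of 1 TG nucleus and 1 UMI in WT. LTBP2 and CCN2 were higher in TG in that cluster too, with ratios of 5.09 (2.28 to 10.6) and 2.58 (1.51 to 4.20), and ELN had an interval that included 1. In cluster 2, with 15 TG and 2468 WT nuclei, FN1, CCN2 and SMOC1 were higher in TG. Their ratios there were 3.40 (2.30 to 4.84), 8.34 (3.56 to 16.7) and 2.76 (1.18 to 5.46). For LTBP2, CILP, TNC and ELN the interval in cluster 2 included 1. In cluster 5, fibroblast markers summed to 13280 CPM in the TG and 10523 CPM in the WT nuclei, and cardiomyocyte markers to 10425 CPM in TG and 8702 CPM in WT.

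**Figure D5:**
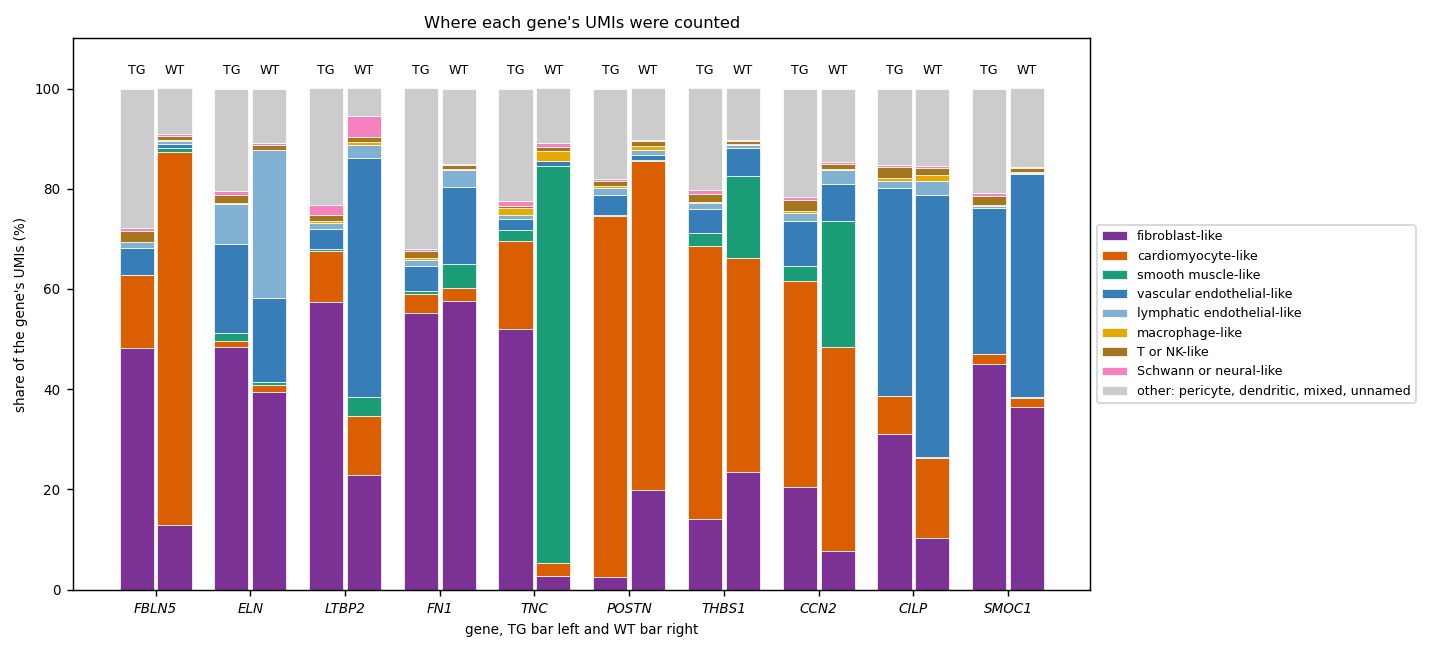
Share of each gene's UMIs, over all kept nuclei of a library, that was counted in each cell class, with the TG bar left and the WT bar right for each gene. Cardiomyocyte-like nuclei held 14.5% of FBLN5 UMIs in TG and 74.6% in WT, and smooth muscle-like nuclei held 79.1% of TNC UMIs in WT.

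The classes with fewer nuclei repeated parts of this picture at low counts. In T or NK-like nuclei 5 of 9 measured genes were higher in TG and 2 lower, against 17.7% and 13.5% of 12709 genes. In Schwann or neural-like nuclei 4 of 7 were higher and 1 lower, against 931 genes called higher and 9.31% called lower of 8381 genes. In macrophage-like nuclei 3 of 6 were higher and 1 lower, against 14.7% and 6.83% of 11516 genes, and in lymphatic endothelial-like nuclei 3 of 9 were higher and 2 lower, against 14.1% and 11.8% of 12979 genes. SMOC1 in T or NK-like nuclei, for example, was at 29.4 CPM in TG and 6.39 CPM in WT, and THBS1 in Schwann or neural-like nuclei at 94.6 CPM in TG and 21.0 CPM in WT. The cardiomyocyte markers in these 4 classes stood at a median of 28.3% to 61.2% of their own class in TG and 7.98% to 29.2% in WT, and their part in these values was not tested. LTBP2 in Schwann or neural-like nuclei did not differ beyond counting error, with 44.6 CPM in TG and 52.0 CPM in WT. In each library 1 class had a higher level.

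Other genes of the same systems, from lists chosen with earlier results known, were read with the same rule. Of 20 other elastic fibre genes measured in fibroblast-like nuclei, 4 were higher and 4 lower in TG, with a median log2 ratio of 0.34 beside 0.05 for all genes measured. In that class 16.9% of all genes measured were called higher and 8.97% lower. MFAP4, a microfibril-associated glycoprotein, had 295 CPM in TG and 86.6 CPM in WT, and ADAMTSL2 28.2 CPM in TG and 10.4 CPM in WT. LOXL1, a cross-linking lysyl oxidase, had 88.0 CPM in TG and 54.0 CPM in WT, and FBLN1 692 CPM in TG and 435 CPM in WT. The fibrillins, which form the scaffold, were lower in TG, FBN1 with 1442 CPM in TG and 2765 CPM in WT and FBN2 with 17.6 CPM in TG and 69.9 CPM in WT. LTBP1, which carries latent TGF-beta, was also lower, with 768 CPM in TG and 1726 CPM in WT, as was EMILIN2 with 52.4 CPM in TG and 81.4 CPM in WT.

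Of 16 other matricellular genes measured in fibroblast-like nuclei, 7 were higher and 3 lower in TG, with a median log2 ratio of 0.49. The highest ratios were those of HMCN1 (701 CPM in TG and 275 CPM in WT), THBS4 (274 CPM in TG and 119 CPM in WT), CCN5 (55.1 CPM in TG and 24.1 CPM in WT) and THBS3 (45.4 CPM in TG and 20.8 CPM in WT). SPARC, a collagen-binding protein, was lower with 303 CPM in TG and 719 CPM in WT, as were OGN with 144 CPM in TG and 222 CPM in WT and CCN3 with 12.8 CPM in TG and 19.3 CPM in WT. Among 11 receptors, 3 were higher and 1 lower. For both lists the share over all genes measured in the class was 16.9% higher and 8.97% lower. CD36, a receptor for thrombospondin and fatty acids, had 1087 CPM in TG and 459 CPM in WT. The integrin subunit ITGB1 had 418 CPM in TG and 266 CPM in WT and ITGB6 41.8 CPM in TG and 27.3 CPM in WT, while ITGA8 had 97.7 CPM in TG and 203 CPM in WT.

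Of 14 genes measured in fibroblast-like nuclei from a list of TGF-beta and YAP response genes, 4 were higher in TG and 0 lower, with a median log2 ratio of 0.26. The share over all genes measured in the class was 16.9% higher and 8.97% lower. Among the listed genes higher in TG, ID1, a target of BMP signalling, had 61.5 CPM in TG and 8.47 CPM in WT. AMOTL2 had 132 CPM in TG and 73.0 CPM in WT and SKIL 147 CPM in TG and 90.8 CPM in WT. In cardiomyocyte-like nuclei 3 of the 15 genes of that list were higher in TG and 4 lower, where 25.0% of all genes measured in the class were called higher and 8.90% lower.

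In smooth muscle-like nuclei the same lists held more genes lower in TG than higher, apart from the response genes, of which 2 were higher and 1 lower among 11. Of 13 elastic fibre genes 1 was higher and 3 lower, of 8 matricellular genes 2 and 3, and of 11 receptors 2 and 6, where 15.8% of all genes measured in the class were called higher and 9.81% lower. FBN1 had 43.9 CPM in TG and 230 CPM in WT, CCN1 159 CPM in TG and 576 CPM in WT, and ITGA5 43.9 CPM in TG and 135 CPM in WT. SMOC2 had 0 UMIs in TG and 23.4 CPM in WT, which makes it at least 3.38-fold lower against a floor of 3 counts. Among the genes higher in TG were CD36 with 270 CPM against 77.8 CPM in WT and AMOTL2 with 102 CPM against 23.4 CPM in WT. ADAMTS10 had 85.4 CPM in TG and 30.9 CPM in WT. The 2 matricellular genes higher were SPARCL1 (3048 CPM in TG and 1891 CPM in WT) and CCN3 (104 CPM in TG and 66.6 CPM in WT). All of these values pool WT cluster 101 with the nuclei of WT clusters 104 and 108. Summed fibroblast markers stood at 696 CPM in TG cluster 104, at 2512 CPM in WT cluster 101 and at 495 CPM in WT cluster 108, and their part in the differences was not tested.

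In vascular endothelial-like nuclei 4 of 19 elastic fibre genes were higher in TG and 4 lower, 2 of 13 matricellular genes higher and 2 lower, and 2 of 15 response genes higher and 1 lower, beside 11.8% and 7.65% of all genes measured in the class. FBN1 had 321 CPM in TG and 553 CPM in WT, and SPARCL1 184 CPM in TG and 391 CPM in WT. EFEMP1 was higher with 22.6 CPM in TG and 7.18 CPM in WT. None of the 11 receptors measured met the rule in either direction. These values pool the shared clusters with WT cluster 26, whose part in them was not tested.

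Likeness of pattern was read as Pearson's correlation of log2(CPM + 1) over the 16 points made by 8 classes in 2 libraries, ranking 9066 genes, as a description since points of 1 library share its depth and free RNA. SMOC1 lay nearest to CXCL12, a chemokine (r = 0.984), FMO1 (0.958) and TMEM100 (0.957). CCN2 lay nearest to MYLK, a smooth muscle kinase (0.959), to its relative CCN1 (0.922) and to THBS1 (0.889), the only one of the 10 genes to appear among the 3 nearest of another. FN1 lay nearest to PTGIS (0.953) and EBF1 (0.919), ELN to OSMR (0.953) and THBS1 to FBLIM1 (0.933). For TNC the nearest was CAPN8 (0.891), for LTBP2 VWA1 (0.883), for CILP ENG (0.878), for FBLN5 C8orf37 (0.876) and for POSTN PCCA (0.829).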

How the data were processed

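Nuclei from frozen left ventricle were profiled with 10x Genomics 3' chemistry, per the labels' protocols. The deposited values are counts of UMIs per gene and barcode, 1 matrix per library, made by the authors. Per the submitters' processing notes the build was Sscrofa11.1 and the tools were Cell Ranger 3.1.0 and Seurat 3.1.1, while Cell Ranger 5.0.0 is named per the file headers. This difference was not resolved. The 10 genes and all gene lists were chosen with earlier results of these data known.

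Barcodes with at least 500 genes and at most 5% mitochondrial UMIs were kept, 14939 of 15000 in TG and 16725 of 18251 in WT. Both libraries were clustered together in scanpy 1.11.5 (Python 3.11.15) on 2000 variable genes without the 10 described, 30 principal components and 15 neighbours, with Leiden clustering (leidenalg 0.10.2, resolution 1, seed 1) and no batch correction. Clusters led by smooth muscle or pericyte genes were clustered again and carry numbers from 100 upwards. A cluster was named for a class when 3 or more of its markers, and 60% or more of them, stood at 20 CPM or above and 1 log2 unit over the 0.25 quantile of all clusters, with 3 or more among its 200 leading genes. Clusters with markers of an unrelated class at a mean log2 fold of 3, or of 1.5 with a raised Scrublet score, were set aside as mixed. Scrublet marked 0 nuclei in TG and 1163 in WT, so its calls were not used to remove doublets. These thresholds were chosen with the clusters in view. Pericyte-like nuclei (39 in TG and 280 in WT) and dendritic-like nuclei (28 in TG and 128 in WT) did not reach 100 nuclei in each library and were not compared.

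Counts were summed per class and library. Exact Poisson intervals accompany levels, Clopper-Pearson intervals shares, and conditional binomial intervals ratios (scipy 1.17.1), all at 95%. These intervals give the precision that depth allows, for counting error only. No test between genotypes was made. The calling script was tested on simulated data. Named were the 10 genes, the listed genes that met the call rule at 10 CPM or more (at most 4 per direction and list), and the genes nearest in pattern. In classes other than fibroblast-like, only some of those listed genes are named. A gene that the rule for listed genes names is counted in its list but not reported here. Gene positions and overlaps came from RefSeq. Protein and promoter sequences were not analysed here. Alternatives changed clustering, filters, depth, weighting, scaling (TMM from edgeR 4.0.16, R 4.3.3), thresholds, mixed clusters and free RNA.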

Additional observations from a re-analysis of the deposited data

Results flagged for a closer look

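7 of the 10 genes were called higher in TG in 1 class and lower in another, and the difference between the classes was not tested. The share of all genes called in both directions was not computed, so this count has no scale beside it. All values are log2 ratios, TG over WT. TNC stood at 3.96 in fibroblast-like and -5.14 in smooth muscle-like nuclei, LTBP2 at 2.65 in fibroblast-like and -4.38 in vascular endothelial-like nuclei, and FN1 at 2.87 in macrophage-like and -2.20 in vascular endothelial-like nuclei. With only the clusters that held at least 40 nuclei of each library, the vascular values were -0.41 for LTBP2 and 0.40 for FN1. The FN1 value in macrophage-like nuclei came from 26 UMIs in TG and 14 UMIs in WT. THBS1 stood at 2.14 in Schwann or neural-like and -2.10 in smooth muscle-like nuclei, and CCN2 at 3.58 in macrophage-like and -1.42 in smooth muscle-like nuclei. The higher values came from 53 TG and 17 WT UMIs of THBS1 and 31 TG and 10 WT UMIs of CCN2. SMOC1 stood at 3.03 in lymphatic endothelial-like and -0.64 in vascular endothelial-like nuclei, and the lymphatic value was 0.67 with only the clusters that held at least 40 nuclei of each library, from 1 UMI in TG and 5 UMIs in WT. ELN stood at 2.73 in smooth muscle-like nuclei, from 17 UMIs in TG and 6 UMIs in WT, and at -1.26 in vascular endothelial-like nuclei.

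FN1 also appeared in nuclei outside the compared classes. Cluster 13 held macrophage markers together with B or plasma cell markers at a mean log2 fold of 2.43. It was set aside as mixed because its Scrublet score was also raised, at 3.14 times the median. FN1 measured 263 CPM in its 488 TG nuclei and 6.94 CPM in its 585 WT nuclei, a ratio of 37.9 (25.7 to 58.4). A UMI was found in 82 TG and 20 WT nuclei, and 4 TG nuclei held 50% of the 764 TG UMIs, 158 of them in 1 nucleus. Macrophage markers summed to 4273 CPM in TG and 4892 CPM in WT, fibroblast markers to 545 CPM in TG and 408 CPM in WT, and cardiomyocyte markers to 20261 CPM in TG and 23161 CPM in WT. The named macrophage-like class had 21.7 CPM of FN1 in TG and 2.92 CPM in WT. B or plasma cell markers were found in that class too, with 1397 CPM in TG and 2920 CPM in WT. Cardiomyocyte markers summed there to 9181 CPM in TG and 2853 CPM in WT.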

How the results depend on the processing

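No paired analysis was possible because each genotype has 1 library. Of 520 values of the 50 called ratios under alternative settings, 505 kept their direction, and 38 of the 50 ratios were never turned. TMM scaling and totals without the most abundant gene shift all ratios of a class alike. Their shifts were too small to turn a called ratio, so their values kept direction in advance. Restricting classes to clusters with at least 40 nuclei in each library, an alternative added after the data were seen, turned the log2 ratios of FN1 (-0.36), TNC (-0.88) and SMOC1 (-0.46) in cardiomyocyte-like nuclei and of FN1 (0.40) and THBS1 (0.41) in vascular endothelial-like nuclei. It left 1 gene higher in cardiomyocyte-like nuclei. The cardiomyocyte values of this setting set mostly TG nuclei of cluster 1 against WT nuclei of cluster 8, and SMOC1 was not lower in TG inside either cluster. The vascular values pooled shared clusters that differed among themselves. Taking off the library-wide profile turned FBLN5 in vascular endothelial-like (3.82), lymphatic endothelial-like (1.84), macrophage-like (2.34) and T or NK-like nuclei (4.02), and CILP in lymphatic endothelial-like nuclei (-1.33). In each of these pairs at least 1 library kept no UMI of the gene. The values thus rest on a pseudocount of 0.5 and are not ratios of measured levels. FBLN5 in lymphatic endothelial-like nuclei also turned with the 10 genes left among the variable genes (0.59), at Leiden resolution 2 (0.56) and with at least 2000 UMIs per nucleus (0.62). Clustering each library on its own turned THBS1 in lymphatic endothelial-like nuclei (-0.02) and FN1 in smooth muscle-like nuclei (0.23).

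Counts of genes moved as follows. The share of all genes called was not computed under the alternative settings, so the moved counts have no scale beside them. In cardiomyocyte-like nuclei 2 were higher after thinning, and 2 were lower with each library clustered on its own and with TMM scaling. In fibroblast-like nuclei 1 was lower with the profile taken off and 1 at a fold of 2. That gene was POSTN in each case, and FBLN5 was no longer called. In vascular endothelial-like nuclei 1 was higher with each library clustered on its own, with at least 2000 UMIs and with the profile taken off. In smooth muscle-like nuclei 0 were higher after thinning and with the profile taken off. Fibroblast-like counts stayed at 7 higher and 2 lower without cluster 20. The cause of each change was not tested. TMM moved the median log2 ratio of all genes by -0.23 in smooth muscle-like, -0.16 in macrophage-like and -0.11 in fibroblast-like nuclei, and totals without the most abundant gene by 0.12 in cardiomyocyte-like nuclei. Depth limits rare transcripts in classes of few nuclei, where 11 of 80 pairs held under 20 UMIs.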

Other observations

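Pericyte-like nuclei, which wrap capillaries, were too few in TG to be compared and are given as values. FBLN5 stood at 41.3 CPM in TG (11.3 to 106, 4 UMIs) and 154 CPM in WT (128 to 185). CCN2 stood at 248 CPM in TG (159 to 369, 24 UMIs) and 47.0 CPM in WT (32.9 to 65.1). FN1 stood at 51.6 CPM in TG (16.8 to 120) and 165 CPM in WT (137 to 196). TNC had 0 UMIs in the class in both libraries. The libraries lay in different clusters, with 36 of 39 TG nuclei in cluster 107 and 240 of 280 WT nuclei in cluster 100. Cardiomyocyte markers summed to 20193 CPM in TG cluster 107 and 4864 CPM in WT cluster 100. Pericyte markers summed to 3004 CPM in TG cluster 107 and 9573 CPM in WT cluster 100. The part of these differences in the values was not tested.

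Cluster 109, left unnamed, held 17 TG and 22 WT nuclei with high FN1, at 1599 CPM in TG and 1348 CPM in WT, a ratio of 1.19 (0.883 to 1.59). TNC there stood at 376 CPM in TG and 61.8 CPM in WT, from 20 UMIs in TG and 5 UMIs in WT, and THBS1 at 470 CPM in TG and 49.5 CPM in WT. POSTN stood at 37.6 CPM in TG and 359 CPM in WT, from 2 UMIs in TG and 29 UMIs in WT. These nuclei were picked out after their values had been seen.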
